A study of Mus musculus with 11 samples.

Results

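The genes described here are 9 components of the Nodal signalling pathway that are transcribed in mouse embryonic stem cells: the ligands Nodal and Gdf3, the coreceptor Tdgf1 (Cripto), the receptor Acvr2b, the secreted inhibitors Lefty1 and Lefty2, the nuclear partner Foxh1, and the intracellular inhibitors Smad7 and Skil. They were taken by symbol from a list that was drawn up with earlier results of these libraries known, so their values are a description, and no test is built on the way they were chosen. All 9 symbols were found among the 55228 in the table, and all 9 were among the 16420 genes with enough counts to be tested.

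Nodal is a ligand of the TGF-beta superfamily that acts through type I and type II activin receptors with Cripto as coreceptor. The receptors phosphorylate SMAD2 and SMAD3, which join SMAD4 and enter the nucleus, where FOXH1 brings them to target genes. Lefty1, Lefty2, Nodal itself, Smad7 and Skil are known targets of the pathway, and the Lefty proteins block Nodal and its coreceptor outside the cell, which closes a negative feedback loop. In the embryo the pathway forms mesendoderm and sets left and right, and in cultured stem cells it is active at a basal level.

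RNA was sequenced from 11 libraries of the mouse embryonic stem cell line EN52.9.1 (CTCF-AID), in which a degron is fused to CTCF, the zinc finger protein that organises chromosome loops, so that auxin has the protein degraded. All groups therefore carried the tagged protein, grew in serum with leukemia inhibitory factor, and came from this line alone. EV untreated (3 libraries) is the control without auxin. EV auxin (2 libraries) received 500 µM of the auxin indole-3-acetic acid which the treatment protocol gives to degrade CTCF. FL auxin (3 libraries) and H373R auxin (3 libraries) received the same auxin, and FL CTCF or CTCF with the H373R substitution was put back into them. In their titles the H373R libraries are called ZF4. No FL or H373R library was untreated, so the returned protein cannot be told apart from standing differences between these cells and EV cells. How long auxin was given, and by which promoter the CTCF copies were driven, is not given in the sources used here, and no auxin-treated line without the degron was analysed here. The labels do not say that replicates were separate cultures, so p-values measure the spread between these samples, which may be technical. The series concerns CTCF as a protein that binds G-quadruplexes, folded structures of DNA with several runs of G.

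Total counts per library ran from 13465241 to 29902246. The transcript of Ctcf, whose protein is the target, did not differ between groups past the threshold in any of the 6 comparisons. Its mean CPM (its share of the library's counts, scaled between libraries with TMM) was 325 ± 27.5 (SD, n = 3) in EV untreated, 361 ± 3.63 (n = 2) in EV auxin, 337 ± 11.3 (n = 3) in FL auxin and 321 ± 13.0 (n = 3) in H373R auxin. A degron acts on the protein, so these counts do not check the depletion, and the CTCF put back did not show as a higher count of this gene. All 8 embryonic stem cell markers on the list were detected in every group, with a summed level of 10634 to 11706 TPM, a count scaled for gene length and library. Against EV untreated, 3 of 8 passed the threshold in EV auxin (1 higher, 2 lower). In FL auxin 6 passed (3 higher, 3 lower) and in H373R auxin 5 (1 higher, 4 lower). The shares of all genes that passed were 20.7%, 36.9% and 44.4%. EV untreated replicate 1 stood apart from its group: the counts of this library differed from those of the other two with a chi-square per degree of freedom of 15.5 and 14.8, against 1.93 to 4.71 in the other pairs of one group. Its deviation from the group mean correlated with GC content over genes at r = 0.56, against -0.38 and -0.32 in the other EV untreated libraries. In the other groups r ran from -0.23 to 0.32. Counts are therefore also given without EV untreated replicate 1.

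Lefty1 and Lefty2 are close copies of each other on chromosome 1 (build GRCm38), and reads from one could be counted for the other. Over their coding sequence of 1104 bases, 1014 bases were identical (91.8%), and the longest identical run was 140 bases. Of all windows of 50 bases in the GENCODE transcripts of Lefty1, 17.9% were also found in another gene, and of those of Lefty2, 307 of 2560. Tdgf1 shared 8.86% of its windows with its pseudogene Tdgf1-ps1, and Gdf3 shared 1.77% with short stretches of other genes. The other 5 genes shared none. How the authors treated reads with several matches is not given in the sources used here, so the split between Lefty1 and Lefty2 is uncertain while their sum is less so.

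The promoter table from RefSeq (GRCm38.p6) held 3 of the 9 genes: Nodal, Tdgf1 and Acvr2b. In the 250 bases before the start, Acvr2b was the one of these 3 with a G-quadruplex motif, defined as 4 runs of at least 3 G with loops of 1 to 7 bases on either strand. This motif was in 16.7% of the 32851 promoters of that length. The Acvr2b promoter is shown because the series is about this structure. The stretch is chr9:119401928-119402117 on the plus strand, ends where the first GENCODE exon begins, and has a GC content of 74.7%. Capitals mark the SMAD element CAGAC on the minus strand, 233 to 229 bases before the RefSeq start, and the G-quadruplex motif on the minus strand, 116 to 82 bases before it.
Acvr2b promoter: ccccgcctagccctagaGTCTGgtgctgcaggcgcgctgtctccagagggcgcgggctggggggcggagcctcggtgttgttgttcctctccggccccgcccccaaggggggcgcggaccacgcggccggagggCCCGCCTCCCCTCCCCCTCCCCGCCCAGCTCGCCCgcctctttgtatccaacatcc
Tdgf1 had 1 SMAD element, 113 to 109 bases before the start, and Nodal had none. The SMAD element was in 42.2% of all promoters. None of the 3 windows held the FOXH1 core AATNCACA (3.18% of promoters), the TATA box TATAAA (12.4%) or a CTCF core (0.0335%). All motifs were searched on both strands, and no match of one overlapped a match of another in these 3 genes. A match is a run of letters in a window and says nothing of binding in these cells.

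The levels of the 9 genes were compared per length, in TPM averaged over the 11 libraries. Tdgf1 was far above the rest at 1406 TPM (1176 to 1518), in the 99.7th percentile of the tested genes. Lefty1 followed at 131 TPM (72.1 to 190), Lefty2 at 125 TPM (82.1 to 168), Skil at 106 TPM (92.7 to 123) and Gdf3 at 104 TPM (91.0 to 117). Below them were Nodal at 77.9 TPM (65.7 to 86.5), Foxh1 at 73.9 TPM (52.8 to 89.3), Smad7 at 54.4 TPM (47.5 to 63.2) and Acvr2b at 29.3 TPM (25.6 to 35.4). From Lefty1 down to Smad7 each gene overlapped the next in this order, except that the lowest Gdf3 library was above the highest Nodal library, and Tdgf1 and Acvr2b stood clear of the rest. The order was not the same in every group. In EV untreated, Skil (114 ± 13.6 TPM, SD, n = 3) and Gdf3 (94.1 ± 2.77) were above Lefty2 (83.4 ± 1.17) and Lefty1 (79.3 ± 10.95). In EV auxin, Lefty1 (177 ± 18.5 TPM, SD, n = 2) and Lefty2 (167 ± 0.475) were above Gdf3 (115 ± 3.78) and Skil (114 ± 3.20).

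**Figure D1:**
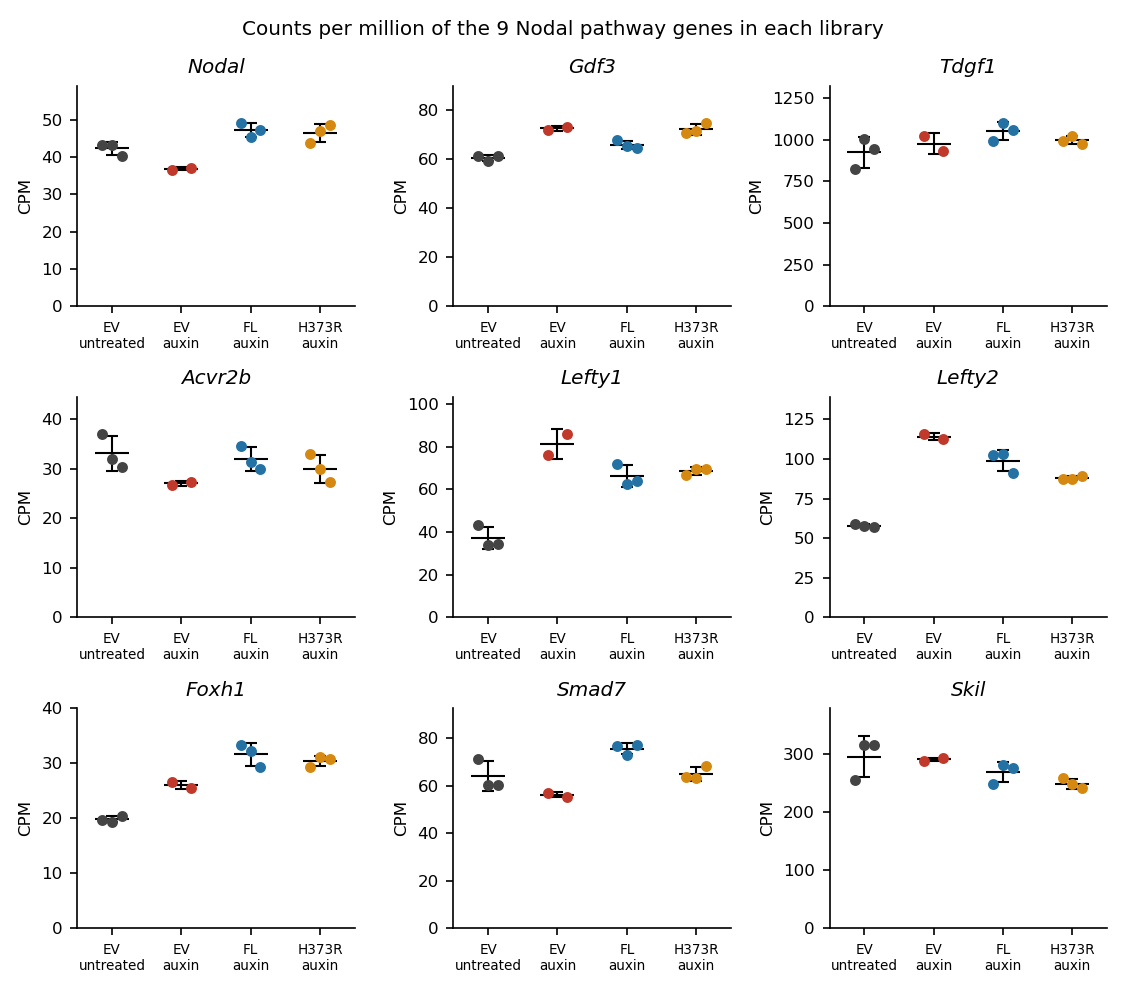
CPM (TMM scaling, y axis from 0) of the 9 genes in each of the 11 libraries, by group (x axis). Points are libraries and black bars the mean ± SD. Lefty1 and Lefty2 are lowest in the 3 EV untreated libraries and highest in the 2 EV auxin libraries, with FL auxin and H373R auxin between them.

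The secreted inhibitors had the widest range of the 9. Lefty1 (chromosome 1, 180935022 to 180938400, plus strand, 4 exons) was at 43.1, 34.0 and 34.1 CPM in the EV untreated libraries and at 76.1 and 86.0 CPM in EV auxin. In FL auxin it was at 71.9, 62.3 and 63.8 CPM, and in H373R auxin at 66.6, 69.3 and 69.7 CPM. No auxin-treated library of any kind came down to the untreated range, and the FL and H373R libraries, which overlapped each other, were all below both EV auxin libraries. The log2 fold change against EV untreated was 1.13 ± 0.094 (SE) in EV auxin, 0.83 ± 0.087 in FL auxin and 0.88 ± 0.086 in H373R auxin. Without EV untreated replicate 1, the highest of its group, these values were 1.24, 0.96 and 1.00. With trends by GC content and length removed they were 1.03, 0.66 and 0.63. Since this is RNA from whole cultures, more cells that transcribe a gene and more RNA per cell cannot be told apart, here or for any other gene.

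Lefty2 (chromosome 1, 180893108 to 180899103, plus strand, 4 exons) was at 58.8, 57.6 and 57.3 CPM in EV untreated and at 116 and 112 CPM in EV auxin. FL auxin gave 102, 103 and 91.3 CPM and H373R auxin 87.2, 87.1 and 89.4 CPM. The 4 groups did not overlap at all: EV auxin was highest, FL auxin next, H373R auxin below it, and EV untreated lowest. Against EV untreated the log2 fold change was 0.98 ± 0.0575 (SE) in EV auxin, 0.77 ± 0.053 in FL auxin and 0.60 ± 0.0525 in H373R auxin. Against EV auxin it was -0.21 ± 0.058 in FL auxin and -0.38 ± 0.057 in H373R auxin.

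The summed Lefty counts were also set against those of the ligand. The Lefty1 and Lefty2 counts summed to 2.36, 2.12 and 2.26 times the Nodal count in the EV untreated libraries. In EV auxin the ratio was 5.26 and 5.34. It was 3.55, 3.65 and 3.29 in FL auxin and 3.52, 3.33 and 3.28 in H373R auxin, so that these 6 libraries lay between the EV groups without overlap with either. The share of Lefty1 in the Lefty counts ranged from 37.1% to 44.3% over the 11 libraries. Within a group it differed most in EV untreated, where replicate 1 had 42.3% and the others 37.1% and 37.3%.

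Of the ligands, Nodal (chromosome 10, 61417972 to 61425338, plus strand, 3 exons) was lower after auxin in EV cells, where the Lefty genes were higher. It was at 43.2, 43.2 and 40.4 CPM in EV untreated and at 36.5 and 37.2 CPM in EV auxin, below all 9 other libraries. FL auxin gave 49.1, 45.3 and 47.2 CPM and H373R auxin 43.7, 46.9 and 48.5 CPM, above every EV untreated library. The log2 fold change was -0.20 ± 0.067 (SE) for EV auxin against EV untreated, 0.36 ± 0.0675 for FL against EV auxin and 0.33 ± 0.067 for H373R against EV auxin. Against EV untreated, Nodal was 0.16 ± 0.059 higher in FL auxin and 0.14 ± 0.058 higher in H373R auxin on the log2 scale, values that became 0.04 and -0.07 once trends with GC content and length were taken out.

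Gdf3 (chromosome 6, 122605403 to 122610087, minus strand, 3 exons), a ligand related to Vg1 that needs the same coreceptor, was at 61.4, 59.2 and 61.4 CPM in EV untreated, 71.9 and 73.3 CPM in EV auxin, 67.8, 65.4 and 64.6 CPM in FL auxin, and 70.5, 71.3 and 74.9 CPM in H373R auxin. All auxin-treated libraries were above the untreated ones, and FL auxin lay below EV auxin and H373R auxin. The log2 fold change was 0.26 ± 0.0535 (SE) for EV auxin against EV untreated, -0.14 ± 0.054 for FL against EV auxin and -0.01 ± 0.0535 for H373R against EV auxin.

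The coreceptor Tdgf1 (chromosome 9, 110939603 to 110946158, minus strand), which holds Nodal at the receptors, was at 823, 1007 and 944 CPM in EV untreated, 1020.2 and 934 CPM in EV auxin, 995, 1103 and 1058 CPM in FL auxin and 990.3, 1022 and 975 CPM in H373R auxin. The ranges of all 4 groups overlapped, and EV untreated replicate 1 was the lowest library. Without that library, FL auxin differed from EV untreated by 0.11 on the log2 scale, against 0.19 ± 0.065 (SE) with it.

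The receptor Acvr2b (chromosome 9, 119402118 to 119434995, plus strand, 9 exons), a type II receptor that binds activin and Nodal, was at 37.1, 31.9 and 30.3 CPM in EV untreated and at 26.7 and 27.4 CPM in EV auxin. FL auxin gave 34.6, 31.3 and 30.0 CPM and H373R auxin 32.9, 29.9 and 27.2 CPM. EV auxin was below EV untreated and FL auxin and overlapped H373R auxin. The log2 fold change of EV auxin against EV untreated was -0.29 ± 0.099 (SE), or -0.21 without EV untreated replicate 1. An antisense gene, Gm47320, overlaps Acvr2b, and the strand setting of the counting is not given in the sources used here, so reads of the pair cannot be told apart.

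Foxh1 (chromosome 15, 76668225 to 76669948, minus strand, 3 exons), the forkhead protein that guides the SMAD complex, was lowest in EV untreated at 19.6, 19.3 and 20.4 CPM. EV auxin gave 26.6 and 25.6 CPM, FL auxin 33.4, 32.3 and 29.3 CPM, and H373R auxin 29.3, 31.1 and 30.8 CPM. Unlike the Lefty genes, Foxh1 was further from the untreated level in the libraries with CTCF put back than in EV auxin. Its log2 fold change against EV untreated was 0.40 ± 0.074 (SE) in EV auxin, 0.68 ± 0.066 in FL auxin and 0.62 ± 0.065 in H373R auxin. With trends by GC content and length removed these values were 0.30, 0.50 and 0.36, and the difference of H373R from EV auxin went from 0.22 ± 0.073 to 0.06.

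The intracellular inhibitors did not move as a pair. Smad7, on chromosome 18, an inhibitory SMAD that blocks the type I receptor, was at 71.3, 60.4 and 60.3 CPM in EV untreated, 56.9 and 55.4 CPM in EV auxin, 76.5, 72.9 and 77.2 CPM in FL auxin and 63.6, 63.0 and 68.1 CPM in H373R auxin. FL auxin was above the other 3 groups, and H373R auxin was between FL auxin and EV auxin with no overlap. The log2 fold change against EV auxin was 0.43 ± 0.075 (SE) in FL auxin and 0.21 ± 0.074 in H373R auxin. Skil (chromosome 3, 31095058 to 31122577, plus strand, 7 exons), the corepressor SnoN, was at 255, 315 and 314 CPM in EV untreated and 288 and 292 CPM in EV auxin. It was at 248, 279.9 and 276 CPM in FL auxin and at 257, 248 and 240.4 CPM in H373R auxin. The H373R libraries were below both EV auxin libraries and overlapped FL auxin and EV untreated replicate 1. The difference of H373R auxin from EV untreated was -0.25 ± 0.071 (SE) on the log2 scale, -0.35 without that library, and 0.02 once GC and length trends were removed.

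**Figure D2:**
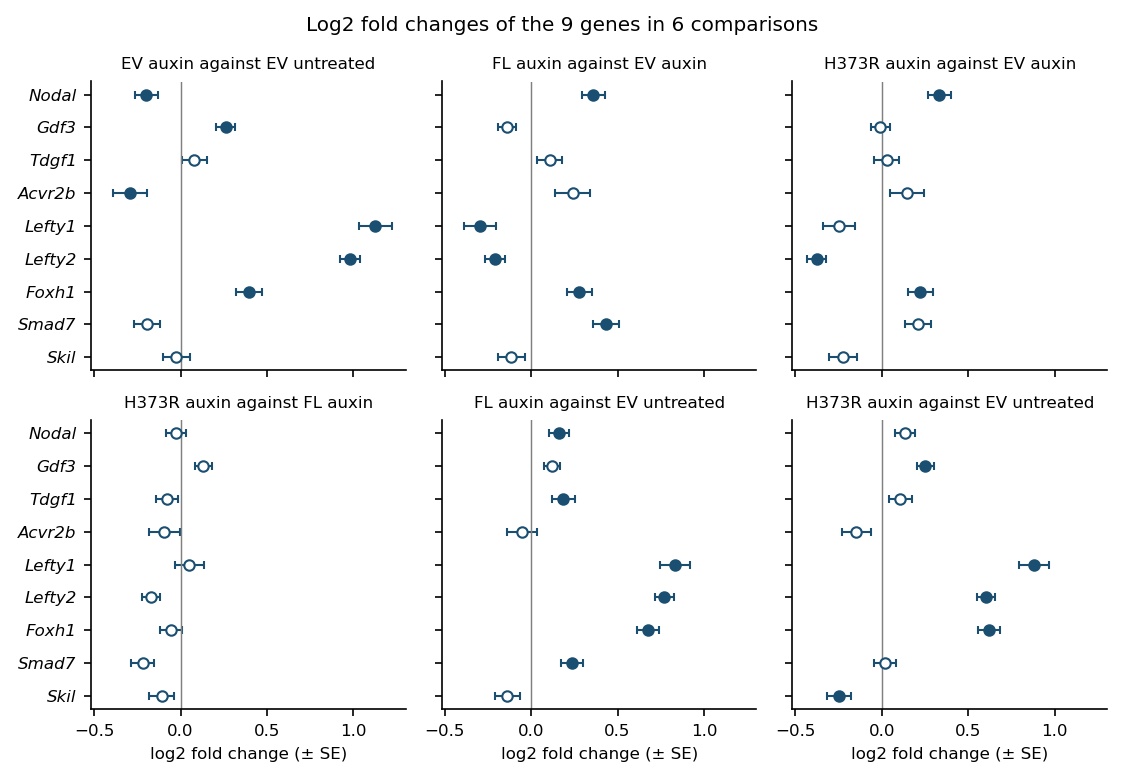
Log2 fold changes (x axis) of the 9 genes (y axis) in the 6 comparisons, 1 panel each, with the standard error of the edgeR fit. Filled points passed an adjusted p of 0.05 and open points did not. Lefty1 and Lefty2 are at 1.13 and 0.98 after auxin in EV cells, range from 0.60 to 0.88 against EV untreated in FL and H373R cells, and no point is filled in the panel of H373R against FL.

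Each count of calls below refers to edgeR's quasi-likelihood test over all tested genes with a Benjamini-Hochberg adjusted p under 0.05, and stands beside the share of all genes called in the same comparison. The comparisons against EV auxin share its 2 libraries, and those against EV untreated share its 3. For EV auxin against EV untreated, which holds the effect of auxin as well as that of losing CTCF, 6 of 9 passed, against 20.7% of all genes. Lefty1, Lefty2, Foxh1 and Gdf3 were higher (11.3% of all genes were) and Nodal and Acvr2b lower (9.4%). With EV untreated replicate 1 left out it was 5 of 9, without Acvr2b, against 33.3%. For FL against EV auxin, which holds the returned protein and any standing difference between the cells, 5 of 9 passed, against 24.5%. Nodal, Foxh1 and Smad7 were higher (11.1%) and both Lefty genes lower (13.4%), and with that library left out Acvr2b joined them, against 35.5%. For H373R against EV auxin 3 of 9 passed, against 21.7%. Nodal and Foxh1 were higher (10% of all genes) and Lefty2 lower (11.7%), and 6 of 9 passed with the library left out, against 33%, Lefty1, Smad7 and Skil being added. Against EV untreated, 6 of 9 passed in FL auxin (36.9% of all genes), all of them higher (17.7%) and none lower (19.2%). Without replicate 1 it was 7 of 9 (47.2%), with Tdgf1 lost, Gdf3 added as higher and Skil added as lower. In H373R auxin 5 of 9 passed (44.4%), Skil lower (22.1%) and the other 4 higher (22.3%), or 6 of 9 without replicate 1 (54.7%). The libraries of the groups did not overlap for 7 of 9 in EV auxin against EV untreated (44.9% of all genes), 8 of 9 in FL against EV auxin (53.9%), 6 of 9 in H373R against EV auxin (57%), 6 of 9 in FL against EV untreated (43.4%) and 5 of 9 in H373R against EV untreated (51%). The rule that chose the genes knew these contrasts, and nothing is read from the counts.

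The single-library dependence of these calls differed by gene. Lefty1, Lefty2 and Foxh1 against EV untreated, in all 3 auxin groups, stayed past the threshold in all 21 alternatives and left-out libraries that were run, as did Nodal in FL and in H373R against EV auxin, Smad7 in FL against EV auxin, Lefty2 in H373R against EV auxin and Gdf3 in H373R against EV untreated. Other calls were lost in some of these settings. Nodal in EV auxin against EV untreated was lost in 13 of the 21 settings and Acvr2b in 11. The lower Lefty1 of FL against EV auxin was lost in 7, among them when EV auxin replicate 2 was left out, where the log2 fold change was -0.19 in place of -0.30.

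H373R and FL cells were also set side by side, a comparison that holds the substitution together with any standing difference between these cells. None of the 9 genes passed in edgeR's test, against 5.96% of all genes (3.14% higher, 2.82% lower). The libraries did not overlap for 3 of 9, against 28.8% of all genes. An unadjusted p under 0.05 in edgeR's test was found for 3 (Gdf3, Lefty2 and Smad7), and for 3375 of all 16420 genes. DESeq2 called 1, Smad7, and limma on log2(TPM + 1) called 0. The shares of all genes called in those fits are not given here, so nothing is read from these counts. The log2 difference, H373R minus FL, was -0.17 for Lefty2 (95% interval -0.28 to -0.06), -0.22 for Smad7 (-0.36 to -0.08) and 0.13 for Gdf3 (0.03 to 0.24). It was 0.05 for Lefty1 (-0.13 to 0.23), -0.03 for Nodal (-0.15 to 0.10) and -0.06 for Foxh1 (-0.19 to 0.08), so that differences of that size in either direction are not excluded by these libraries. When EV untreated replicate 1 was left out, a library of neither group that shares the estimate of the spread, Lefty2 (-0.18) and Smad7 (-0.23) passed, against 14.2% of all genes. Without FL auxin replicate 3, Lefty2 passed at -0.22.

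Markers of other cell types differed between the same groups. The 8 primitive endoderm markers summed to 22.5 to 25.2 TPM in EV untreated, 25.5 to 26.9 TPM in EV auxin, 79.2 to 87.7 TPM in FL auxin and 50.1 to 57.1 TPM in H373R auxin. All 8 were called higher in FL and in H373R against EV auxin, where 11.1% and 10% of all genes were. In H373R against FL 5 of 8 were called lower, against 2.82% of all genes. The 5 primed epiblast markers summed to 226 to 232 TPM in EV untreated and 329 to 335 TPM in EV auxin, with 316 to 340.1 TPM in FL auxin and 340.0 to 348 TPM in H373R auxin. The 7 primitive streak markers summed to 14.2 to 15.3 TPM in EV untreated and 18.8 to 24.0 TPM in the other groups, the 6 fibroblast markers to 69.2 to 75.5 TPM in the EV groups and 86.4 to 97.8 TPM in FL and H373R auxin, and the 6 trophoblast markers, of which 5 were tested, to 138 to 171 TPM over all groups. A sum can rest on the most abundant genes of a list. Against EV untreated, 1 of 7 streak markers passed in EV auxin, 1 in FL auxin and 4 in H373R auxin. Of the 5 epiblast markers 3, 4 and 4 passed, 1 of them lower in FL auxin and 1 in H373R auxin. The shares of all genes were 20.7%, 36.9% and 44.4%. No marker of these lists was at 0 in every library of a group. The part of these cells in the values of the 9 genes was not tested.

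The rest of the pathway was followed through a list of 30 other genes, of which 26 had enough counts. Gdf1, Inhba, Acvr1c and Cer1 were not tested, with at most 5 counts in any library. After auxin in EV cells 4 of 26 passed, against 20.7% of all genes, with a median log2 fold change of -0.00 against 0.01 over all genes. Fstl3, a secreted binder of activin, rose by 0.68 ± 0.125 (SE), from 4.10 to 6.66 CPM on average (adjusted p = 0.00116, edgeR). Dand5, a secreted Nodal antagonist of the Cerberus family, rose by 0.46 ± 0.155 (adjusted p = 0.0483), and Zfyve9, the anchor protein SARA that presents SMADs to the receptor, by 0.36 ± 0.077 (adjusted p = 0.00356). Inhbb, the beta B subunit of activin and inhibin and the most abundant ligand gene of the list at 143 TPM, fell by 0.41 ± 0.078, from 193 to 145 CPM (adjusted p = 0.00156). With EV untreated replicate 1 left out, 7 of 26 passed, against 33.3% of all genes: Dand5 was lost (adjusted p = 0.0958), and Furin, Ski, Drap1 and Acvr2a were added.

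The SMADs that carry the signal did not pass in that comparison. Smad2, Smad3 and Smad4 had log2 fold changes of 0.08, 0.03 and -0.11 after auxin in EV cells. Their mean levels in EV untreated were 50.6, 23.4 and 138 TPM. The type I receptor gene Acvr1b had -0.06 ± 0.052 and the type II receptor gene Acvr2a -0.09 ± 0.10. Cfc1, the other gene of the Cripto family, was near the limit of detection at 0.671 to 2.17 TPM over the libraries.

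The cells with CTCF put back were then set against EV auxin. Of the 26, 12 passed in FL against EV auxin (9 higher, 3 lower), against 24.5% of all genes, and 7 in H373R against EV auxin (6 higher, 1 lower), against 21.7%. When EV untreated replicate 1 was left out it was 14 and 10, against 35.5% and 33% of all genes. Pcsk6, a convertase that processes Nodal, rose from 69.2 CPM in EV auxin to 111 CPM in FL auxin (0.68 ± 0.060, SE, edgeR adjusted p = 2.6e-06) and to 82.1 CPM in H373R auxin (0.24 ± 0.060). Furin, the other main convertase, rose by 0.46 ± 0.083 in FL and by 0.29 ± 0.082 in H373R. The feedback inhibitors Pmepa1 and Bambi rose in both: Pmepa1, which traps SMADs, by 0.43 ± 0.0675 and 0.38 ± 0.067, and Bambi, a receptor decoy, by 0.48 ± 0.12 and 0.46 ± 0.12. The corepressor gene Tgif2 rose by 0.26 ± 0.055 and 0.40 ± 0.0545. Smurf2, a ubiquitin ligase of the pathway, fell by 0.24 ± 0.068 and by 0.22 ± 0.068. Both counts fall when 1 EV auxin library is left out, and the counts over all genes fall as well. Such a fit holds a lone EV auxin library that is assumed to vary like the other groups.

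Between H373R and FL cells 4 of 26 passed, against 5.96% of all genes. Fstl3 was higher in H373R by 0.63 ± 0.11 (SE), at 7.61 against 4.95 CPM (edgeR adjusted p = 0.00339), and Nedd4l, a ubiquitin ligase that removes activated SMADs, by 0.26 ± 0.049 (adjusted p = 0.00467). Pcsk6 was lower by 0.43 ± 0.0525 (adjusted p = 0.000132), and Inhbb was lower by 0.39 ± 0.070, at 133 against 173 CPM (adjusted p = 0.00363). For Fstl3, Pcsk6, Inhbb and Nedd4l alike, no library of one group reached the range of the other. With EV untreated replicate 1 left out, 6 of 26 passed, against 14.2% of all genes.

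**Figure D3:**
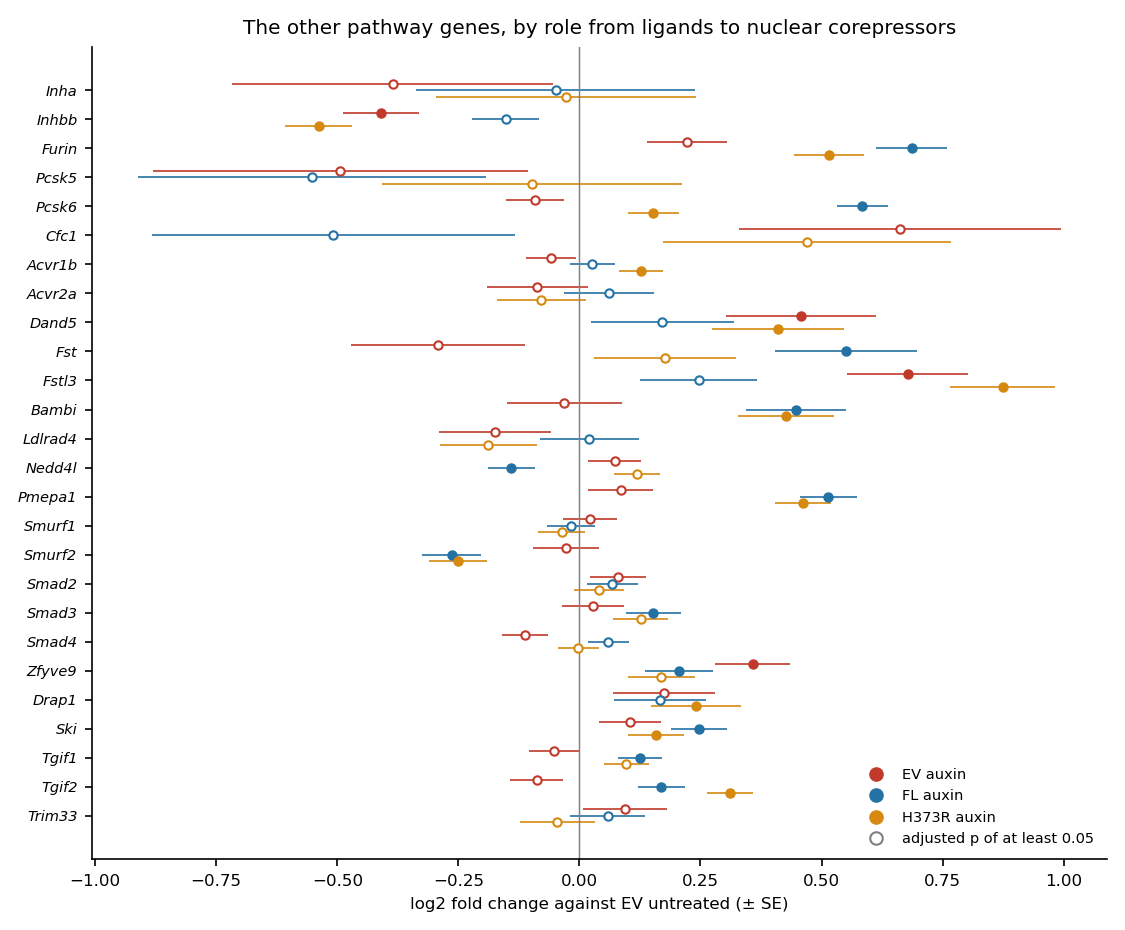
Log2 fold changes against EV untreated (x axis, ± SE) of the 26 other pathway genes (y axis, grouped by role) in EV auxin, FL auxin and H373R auxin, which share the EV untreated libraries. Filled points passed an adjusted p of 0.05. Fstl3 is at 0.68 in EV auxin and 0.87 in H373R auxin but 0.25 in FL auxin, and Pcsk6 is at 0.58 in FL auxin and 0.15 in H373R auxin.

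Genes that Nodal and activin induce in mesendoderm formed a second list of 12, of which 11 were tested. After auxin in EV cells 2 of 11 passed, both higher, against 20.7% of all genes. Of these, Mixl1, a homeobox gene of the primitive streak, rose by 0.61 ± 0.18 (SE), from 1.83 to 2.78 CPM (edgeR adjusted p = 0.0254). Eomes (-0.15), Lhx1 (-0.11), Foxa2 (-0.05) and Otx2 (-0.04) did not pass. In FL against EV auxin 6 of 11 passed, all higher (24.5% of all genes), and in H373R against EV auxin 4 of 11, all higher (21.7%). In H373R against FL cells 1 of 11 passed, against 5.96% of all genes. It was T, which encodes Brachyury, lower in H373R by 1.15 ± 0.22, at 1.49 against 3.26 CPM. Without EV untreated replicate 1 the counts were 3, 8 and 7 of 11 in the comparisons of EV auxin, FL and H373R, and 1 between H373R and FL, where 33.3%, 35.5%, 33% and 14.2% of all genes passed. Of the 12, 6 are also among the markers of primitive streak, primitive endoderm, epiblast or trophoblast given above. Cer1, Pmepa1 and Ldlrad4 are also in the list of other pathway genes, so the counts of these lists are not separate.

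The 2 tested protein-coding genes on either side of each of the 9 were examined as well, 33 genes in all. After auxin in EV cells 10 of 33 passed (7 higher, 3 lower), against 20.7% of all genes, and 15 of 33 without EV untreated replicate 1, against 33.3%. Near the Lefty genes, which lie 35.9 kb apart, Tmem63a, a membrane channel gene 3.94 kb from Lefty1, rose by 0.29 ± 0.071 (SE, edgeR adjusted p = 0.00865), less than either Lefty gene. Ephx1 (-0.09), Sde2 (-0.05) and H3f3a (-0.15), other neighbours of the pair, did not pass, and of these H3f3a passed (-0.18) when that library was left out. In H373R against FL cells, Tmem63a was higher by 0.33 ± 0.065 and Ephx1 by 0.49 ± 0.059.

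Some genes beside Gdf3 had larger changes than Gdf3 itself. In EV cells with auxin, Dppa3, a maternal and germ cell factor 16.3 kb away, rose by 1.05 ± 0.075 (SE), and Apobec1, a cytidine deaminase gene 2.96 kb away, by 0.79 ± 0.12. Nanog, 97.4 kb away, had -0.09 ± 0.063 and did not pass, although it passed at -0.18 without EV untreated replicate 1. In FL auxin Dppa3 was 0.30 ± 0.076 below EV untreated, and Apobec1 (0.16) did not pass. Nanog had -0.44 ± 0.057 in FL auxin and -0.32 ± 0.056 in H373R auxin against EV untreated, and passed in both. In H373R against FL cells Apobec1 was higher by 0.48 ± 0.11 and Dppa3 by 0.39 ± 0.076. Beside Nodal, Eif4ebp2, an inhibitor of translation 3.15 kb away, fell by 0.35 ± 0.048 in EV auxin and was higher by 0.20 ± 0.048 in FL and 0.15 ± 0.048 in H373R against EV auxin. Of the 4 genes beside Foxh1, none passed in any of the 6 comparisons, though Gpt passed after auxin in EV cells (0.55) once EV untreated replicate 1 was left out.

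How alike the 9 genes were across libraries was described by Pearson's r over the log2 CPM of the 11 libraries, which fall into the 4 groups, so the libraries of a group are not independent points. Lefty1 and Lefty2 had r = 0.945. Gdf3 and Foxh1 followed Lefty1 at r = 0.89 and 0.80, and Nodal followed Smad7 at 0.81, while Nodal and Lefty1 had r = 0.02. Among the 10080 genes whose log2 CPM averaged 3 or more, the one most like Lefty1 was Tob2 (r = 0.98), and the one most like Lefty2 was Dennd2a (0.97), followed by Ccne1 (0.97). Nodal was most like Ssr2 (0.97), Gdf3 like Dlx3 (0.98), Tdgf1 like Klhl13 (0.98), Acvr2b like Gtf3c1 (0.94), Foxh1 like Dhx32 (0.99), Smad7 like Sox4 (0.96) and Skil like Cnot4 (0.99).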

How the data were processed

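The authors deposited 2 tables for the 11 libraries, raw counts per gene symbol and TPM, made from column-purified RNA and a directional kit per the labels. Subread 2.0.3 with featureCounts, DESeq2 and the builds mm10 and GRCm38 are named in the submitters' processing notes, without their roles. The aligner, annotation, strand setting and treatment of reads with several matches are not given in the sources used here. In the deposited TPM table each gene's ratio of count to TPM is fixed up to a library factor, so both hold the same reads. The files hold 0 columns of other samples.

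edgeR 4.0.16, run in R 4.3.3, gave the tests on counts (TMM scaling, filterByExpr, a group-means model over all 11 libraries, quasi-likelihood F test, Benjamini-Hochberg adjustment over 16420 genes, threshold 0.05). CPM are TMM-scaled, and r was taken on log2 CPM (prior count 2). GENCODE M21 (GRCm38) gave positions, neighbours and transcripts, with 98.9% of tested symbols found. The genes and lists were chosen with earlier results of these data known. Named genes are all 9, up to 4 genes per list past the threshold by size in EV auxin against EV untreated and in H373R against FL where log2 CPM averaged 1 or more, the most abundant gene of each role, the genes most like each of the 9, and the genes beside them. Others were named after their values were seen.

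Replicate numbers are shared by the groups, and the deviations of same-numbered libraries from their group means correlated at -0.09 to 0.28. Pairs of unlike number were not compared, so a pairing by number is not excluded, and the main fit holds none. Tried as alternatives were scaling by RLE or upper quartile, DESeq2 1.42.0, all genes unfiltered, a fit to the compared libraries alone, the replicate number as block, and each library left out. On log2(TPM + 1), limma 3.58.1 kept genes reaching 1 TPM in 2 libraries, and was rerun with 0.1 added instead and again unfiltered. Removing trends with GC content and length was added after the data were seen. Scripts were tested on simulated counts. Some results on single genes and sequences are not reported here.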

Additional observations from a re-analysis of the deposited data

How the results depend on the processing

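Over 21 alternatives, 1005 values of the 54 log2 fold changes of the 9 genes were counted as the same, keeping their side of the threshold. Among them, some values near 0 that did not pass changed sign by less than the SE. Of the rest, 79 lost the threshold and 44 gained it. Another 4 moved, passing in neither fit but changing sign by the SE or more. The last 2 turned with GC and length trends removed, a setting chosen after seeing the data. Smad7 and Skil of H373R against EV untreated became -0.15 and 0.018. Depth limits genes such as Cfc1 and T, at few counts per library.

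Over all genes, 3392 passed in EV auxin against EV untreated, 4016 in FL against EV auxin, 3570 in H373R against EV auxin, 979 in H373R against FL, 6052 in FL against EV untreated and 7292 in H373R against EV untreated. With only the libraries compared the count was 2016 in EV auxin against EV untreated, 5909 in H373R against EV auxin and 1815 in H373R against FL. Removing GC and length trends gave 5104 in EV auxin against EV untreated and 2236 in H373R against FL. limma without a TPM filter gave 2335 in H373R against EV auxin and 588 in H373R against FL. Leaving out 1 library gave ranges, in the order above, of 1569 to 5444, 1879 to 5800, 1502 to 5397, 510 to 2323, 4776 to 7706 and 6012 to 8927. The cause was not tested.

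Of the 9 genes, H373R against EV auxin gave 5 without the count filter and 6 with only the libraries compared, in place of 3. Over all genes the latter setting gave 5909 in place of 3570. Counts over all genes moved with the setting too, so nothing is read from those of the 9 or of the 26 below. H373R against FL gave 1 with DESeq2, 1 without the count filter, 2 with only the libraries compared and 2 with trends removed, in place of 0. FL against EV untreated gave 3 with limma without a TPM filter, in place of 6. With 1 library left out the counts, in the same order, were 3 to 6, 2 to 6, 2 to 6, 0 to 2, 3 to 7 and 4 to 6.

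Of the 26 other pathway genes, removing trends gave 9 in EV auxin against EV untreated, where all genes gave 5104 in place of 3392. In H373R against EV auxin it gave 13. That comparison gave 13 with only the libraries compared (5909 of all genes) and 2 with limma without a TPM filter (2335 of all genes). limma without that filter gave 7 in FL against EV untreated, and H373R against EV untreated gave 7 in each of the 3 limma settings, in place of 12. With 1 library left out the counts were 2 to 7, 5 to 14, 2 to 10, 4 to 6, 8 to 12 and 7 to 13.

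With the replicate number as a block, 3197, 3978, 3532, 942, 6142 and 7436 of all genes passed in the order above, and 5, 6, 3, 0, 5 and 5 of the 9.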

Other observations

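Other branches of the superfamily were listed as well. Of 11 genes of the TGF-beta branch, 5 passed in EV auxin against EV untreated (edgeR, 20.7% of all genes). The ligand gene Tgfb3, a gene of few counts whose log2 CPM averaged under 1, rose by 1.17 ± 0.18 (SE) on the log2 scale. Ltbp3, which stores latent ligand in the matrix, rose by 0.42 ± 0.14. Its relative Ltbp1 fell by 0.63 ± 0.074, and Eng, the coreceptor endoglin, by 0.59 ± 0.086. None of the 11 passed between H373R and FL cells in edgeR's test, against 5.96% of all genes. An unadjusted p under 0.05 in that test was found for 5 of the 11, and for 3375 of all 16420 genes. Without EV untreated replicate 1, 2 passed, against 14.2% of all genes.

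Of 19 tested genes of the BMP branch, 5 passed after auxin in EV cells, against 20.7% of all genes. Id3 rose by 0.39 ± 0.11 and Id2 by 0.32 ± 0.086, both known BMP targets. The antagonist gene Nog, whose log2 CPM also averaged under 1, rose by 0.72 ± 0.21. Twsg1, a binder of BMP, fell by 0.42 ± 0.0695, and the type I receptor gene Acvr1 by 0.26 ± 0.080. Without EV untreated replicate 1, 8 passed, against 33.3% of all genes, and Nog did not (adjusted p = 0.0529). Id1, the most abundant of these targets at 161 TPM, did not pass after auxin (0.05 ± 0.10) and rose by 0.44 ± 0.10 in FL and 0.49 ± 0.10 in H373R against EV auxin. Between H373R and FL cells, Id2 was higher in H373R by 0.54 ± 0.078 and Bmp8b lower by 0.35 ± 0.092, the 2 of 19 that passed, against 5.96% of all genes.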
